A study of Mus musculus with 4 samples.

Results

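The cytosolic ribosomal protein genes encode the proteins of the large (60S-type, Rpl and Rplp genes) and small (40S-type, Rps genes and Rpsa) subunits of the cytoplasmic ribosome. They were taken by symbol from the mouse genes in the tables, as every Rpl or Rps symbol followed by a digit plus Rplp0, Rplp1, Rplp2 and Rpsa, without the S6 kinase genes, Rps19bp1 and symbols of pseudogenes. The rule gave 89 of 24235 genes, 54 of the large and 35 of the small subunit. Of these, 12 are paralogs, such as Rpl22l1 and Rps27l, that have a standard counterpart under another symbol. The measurements were 4 stranded mRNA libraries of macrophages grown from bone marrow with the growth factor M-CSF, and all mice were C57BL/6 aged 7 weeks. The groups were macrophages labelled Sema6D-/- (without the transmembrane semaphorin Sema6D) with LPS, macrophages labelled Sema6D-/- without LPS, wild-type (WT) macrophages with LPS and WT macrophages without LPS. Stimulated cells received 100 ng/ml of LPS, a bacterial cell wall lipid to which macrophages respond, over 4 h. The treatment text of the unstimulated libraries mentions LPS too, so stimulated and unstimulated cells were told apart by the library titles. Each group was 1 library, so no difference has a replicate check and none was tested. Ratios compare these libraries, and the number of animals behind a library was not given in the sources used here.

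Ribosomal proteins assemble with ribosomal RNA in the nucleolus and are needed in near equal numbers in each ribosome. Their mRNAs are among the most abundant of a growing cell and many begin with a run of pyrimidines, the 5′ terminal oligopyrimidine (TOP) motif, through which mTOR and the RNA-binding protein Larp1 control their translation. Most of the genes have processed pseudogenes, intronless copies of the mRNA scattered over the genome, so short reads from them are hard to place. In activated macrophages the synthesis of immune proteins draws on this machinery.

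Expression was deposited as FPKM (fragment counts corrected for transcript length and sequencing depth), and levels of different genes are compared only on this length-scaled measure. How the authors scaled the libraries to each other is not given in the sources used here. The steps between low values put the depth at 16.4 to 30.5 fragments per kilobase and FPKM, lowest in the library labelled Sema6D-/- with LPS and highest in WT without LPS. All 8 macrophage markers reached 1 FPKM in every library, and the B and T cell, erythroid, stromal and mast cell or basophil markers were all under 1 FPKM. Of 4 dendritic cell markers Xcr1 reached 2.50 and 1.05 FPKM with and without LPS in the libraries labelled Sema6D-/-, against 2.52 and 0.266 FPKM in WT, and the others stayed under 1 FPKM. Neutrophil markers differed between the genotypes. The 8 markers summed to 360 FPKM with LPS and 234 FPKM without LPS in the libraries labelled Sema6D-/-, against 1272.1 FPKM with LPS and 828 FPKM without LPS in WT, while Ly6g was under 0.5 FPKM in every library. All 6 check genes of the LPS response were higher with LPS by over 2-fold in both genotypes. Without LPS all 6 were also higher in the library labelled Sema6D-/- than in WT, 3 of them by 2-fold or more. Cxcl10, for example, had 267 FPKM there and 30.5 FPKM in WT. The LPS ratios of the 2 genotypes therefore start from unlike levels of these genes. Sema6d itself was at 0.592 FPKM with LPS and 0.563 FPKM without LPS in the libraries labelled Sema6D-/-, against 0.219 and 0.304 FPKM in WT with and without LPS. It was thus not lower under its own knockout label, and the genotype is given below as labelled. Xist, expressed from the inactive X chromosome, was at 0.0306 and 0.0333 FPKM with and without LPS in the libraries labelled Sema6D-/-, against 21.4 and 22.3 FPKM in WT. The Y-linked gene Ddx3y was at 16.6 and 13.2 FPKM with and without LPS in the libraries labelled Sema6D-/-, against 0 and 0.00729 FPKM in WT. The sex of the cells and the labelled genotype therefore cannot be told apart in any genotype comparison.

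The listed levels of ribosomal protein genes spanned from 0 to over 1000 FPKM. At the top stood Rplp1, an acidic protein of the stalk that recruits elongation factors, with 1299 FPKM with LPS and 1047 FPKM without LPS in the libraries labelled Sema6D-/-, against 1498 FPKM with LPS and 1308 FPKM without LPS in WT. Also among the 5 highest by mean level were Rps26, near the mRNA exit channel, Rps9 and Rpl4. Rps26 had 501 FPKM with LPS and 383 FPKM without LPS in the libraries labelled Sema6D-/-, against 591 and 468 FPKM in WT with and without LPS. These 3 were between 360 and 591 FPKM in every library, and each had its higher value with LPS in both genotypes. The 10 highest members of a library held from 69.1% to 71.2% of the summed FPKM of all 89.

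At the other end 6 members were listed at 0 in all libraries: Rpl26 and Rps28, which are standard parts of the ribosome, and the paralogs Rpl10l, Rpl39l, Rps23rg1 and Rps27rt. A further 20 were above 0 but under 1 FPKM in every library, among them Rpl5, which with Rpl11 and 5S rRNA forms a complex that binds Mdm2, and Rpl10, one of the last proteins to join the large subunit. Rpl5 was at 0.333 and 0.107 FPKM with and without LPS in the libraries labelled Sema6D-/-, against 0.169 and 0.129 FPKM in WT. Rpsa, the laminin receptor protein of the small subunit, was also low, at 2.07 and 1.59 FPKM with and without LPS in the libraries labelled Sema6D-/-, against 1.91 and 1.54 FPKM in WT. That leaves 63 members that reached 1 FPKM in some library, 56 that did so in all, and 16 that were never below 100 FPKM. A listed 0 for a protein that every ribosome holds cannot be read as absence of the mRNA.

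**Figure D1:**
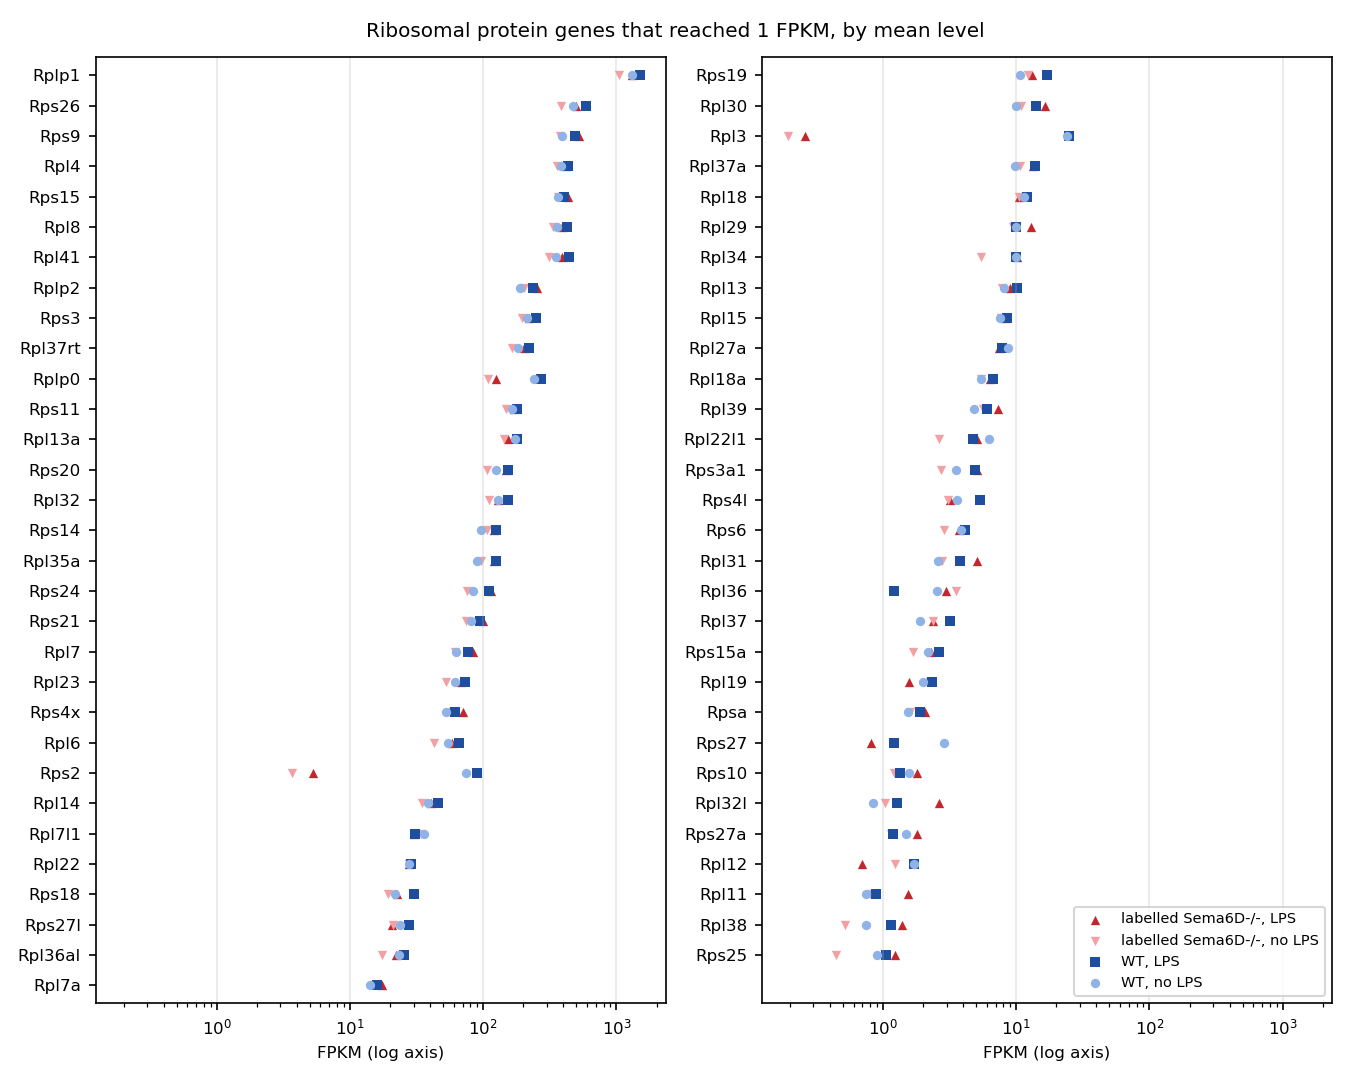
FPKM on a log axis for ribosomal protein genes that reached 1 FPKM in any library, ordered by mean level, with 1 symbol per library; some members are not shown. For most genes the 4 symbols lie close together, whereas Rpl3 and Rps2, and to a smaller degree Rplp0, are far lower in both libraries labelled Sema6D-/- than in both WT libraries.

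The low values went together with copies in the genome. Coding sequences were cut into overlapping windows of 50 bases and each window was looked for in the transcripts of other annotated genes. Among the 86 members with a matched coding sequence the median share of windows also found in another gene was 90.8%, against 0% over 20534 genes, and 71 members (82.6%) shared at least 50% of their windows, against 8.35% of all genes. Leaving out the paralogs, the 21 members under 1 FPKM in every library had a median share of 100%, with the lowest at 87.3%. The 56 members that reached 1 FPKM had a median share of 86.5%, and the 15 never below 100 FPKM had a median of 43.5%. The share and the mean FPKM had a Spearman rho of -0.79 across these 77 genes, which share the same 4 libraries and counting. Rpl4 and Rpl8, with 20.3% and 8.73% of windows shared, were among the higher members, but Rpl41 (100% shared) and Rpl13a (97.5% shared) were high as well, at 312 to 441 FPKM and 144 to 179 FPKM over the libraries. How reads that match several places were counted is not given in the sources used here, and the part of copies in the levels was not tested.

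**Figure D2:**
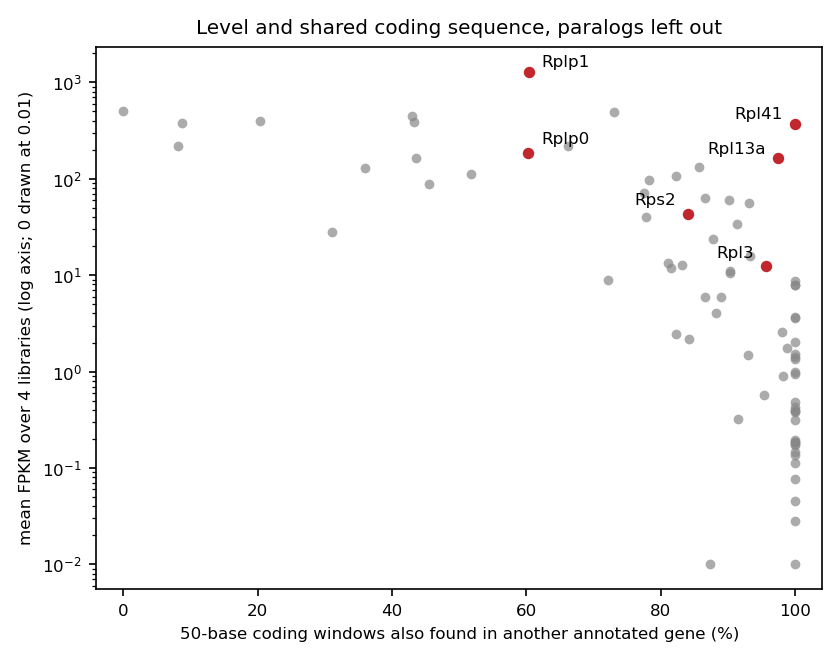
Mean FPKM over the 4 libraries, on a log axis with 0 drawn at 0.01, against the percent of 50-base coding windows also found in another annotated gene, for the 77 members without paralogs, with 6 genes named in red. The genes under 1 FPKM crowd at or near 100%, and Rpl3 and Rps2 lie at 95.7% and 84.1% among genes of similar level.

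In places a copy was listed far above the standard gene. Rpl37rt, a retrotransposed copy of the large subunit gene Rpl37, had 203 FPKM with LPS and 164 FPKM without LPS in the libraries labelled Sema6D-/-, against 222 and 183 FPKM in WT. Rpl37 itself had 2.36 and 2.35 FPKM in the libraries labelled Sema6D-/-, against 3.21 and 1.90 FPKM in WT. A transcript named as the pseudogene Rpl34-ps1, which the rule leaves out, likewise had 122 and 97.4 FPKM with and without LPS in the libraries labelled Sema6D-/-, against 129 and 91.7 FPKM in WT. The large subunit gene Rpl34 had 10.1 and 5.40 FPKM in the libraries labelled Sema6D-/-, against 10.01 and 9.96 FPKM in WT. Which of such near-identical genes made the reads is uncertain.

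The clearest difference within the family lay between the genotypes and in 3 genes. Rpl3, which reaches toward the peptidyl transferase centre and joins the large subunit early, had 0.260 FPKM with LPS and 0.193 FPKM without LPS in the libraries labelled Sema6D-/-, against 24.8 FPKM with LPS and 23.9 FPKM without LPS in WT. Rps2, a protein of the mRNA entry channel of the small subunit, had 5.29 FPKM with LPS and 3.64 FPKM without LPS in the libraries labelled Sema6D-/-, against 90.3 and 74.8 FPKM in WT. Rplp0, the base of the stalk that carries Rplp1 and Rplp2, had 125 FPKM with LPS and 108 FPKM without LPS in the libraries labelled Sema6D-/-, against 273 and 241 FPKM in WT. For all 3 genes both libraries labelled Sema6D-/- lay below both WT libraries, but the 3 were grouped by these values, so that order adds no support. All 3 genes have close copies elsewhere. A stretch of 61 coding bases of each is shown beside a close annotated copy, a processed pseudogene. The pairs differ at so few bases that a read can be hard to place. Whether a closer copy lies elsewhere in the genome is not reported here. Both sequences of a pair are the GENCODE vM21 transcripts on GRCm38, sense strand, and capitals mark the bases that differ.
Rpl3, coding bases 27 to 87, chromosome 15: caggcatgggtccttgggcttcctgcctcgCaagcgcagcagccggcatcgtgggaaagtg
Rpl3-ps1, chromosome X: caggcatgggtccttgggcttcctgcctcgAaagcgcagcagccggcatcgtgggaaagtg
Rps2, coding bases 30 to 90, chromosome 17: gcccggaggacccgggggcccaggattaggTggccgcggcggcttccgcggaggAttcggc
Rps2-ps13, chromosome X: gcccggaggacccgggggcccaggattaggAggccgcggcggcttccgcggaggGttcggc
Rplp0, coding bases 42 to 102, chromosome 5: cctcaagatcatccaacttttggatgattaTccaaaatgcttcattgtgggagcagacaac
Gm8730, chromosome 8: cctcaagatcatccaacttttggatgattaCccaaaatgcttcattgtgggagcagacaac

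Over the whole coding sequence Rpl3 and Rpl3-ps1 differed at 2 of 1209 bases, Rps2 and Rps2-ps13 at 7 of 879, and Rplp0 and Gm8730 at 12 of 951. Pseudogenes sharing at least 1 window numbered 26 for Rpl3, 71 for Rps2 and 7 for Rplp0. The copies shown for Rpl3 and Rps2 lie on the X chromosome, whereas Gm8730 lies on an autosome. On which chromosomes the other pseudogenes lie is not reported here. Values of the copies shown were not analysed here, and the part of the copies in the genotype difference was not tested.

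Without LPS, the log2 ratio of FPKM + 1 of the library labelled Sema6D-/- over WT was -4.39 for Rpl3, -4.03 for Rps2 and -1.15 for Rplp0. With LPS it was -4.36, -3.86 and -1.12 in the same order of genes. For Rpl3 the added 1 far exceeds the values labelled Sema6D-/-, so these ratios follow the WT level. Taken without the added 1, the Rpl3 ratio was -6.96 without LPS, with a 95% Poisson interval from -8.57 to -5.71, since only about 5 fragments lay behind the value labelled Sema6D-/- and about 847 behind the WT value. With LPS it was -6.58 (interval -8.19 to -5.33). For Rps2 the same ratio was -4.36 (interval -4.74 to -4.005), from about 65 and 1844 fragments, and for Rplp0 it was -1.16 (interval -1.22 to -1.10), from about 2793 and 8597 fragments. These intervals cover counting error only and say nothing of the spread between cultures or animals.

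In the order of levels within a library, Rpl3 stood at place 68 with LPS and 71 without LPS of the 89 members in the libraries labelled Sema6D-/-, against places 33 and 30 in WT. Rps2 stood at place 44 in both libraries labelled Sema6D-/-, against 21 in both WT libraries. Rplp0 stood at places 16 and 15 with and without LPS in the libraries labelled Sema6D-/-, against 9 in both WT libraries. Thus Rpl3 and Rps2 did not stand wholly alone, since Rplp0 differed in the same direction by a smaller amount, but no other member that reached 1 FPKM was lower by 2-fold in both states. Members under 1 FPKM cannot reach 2-fold once 1 is added, and are not judged. At 2-fold or more, 4 members were lower and 0 higher without LPS, of the 60 measured (1 FPKM or more in either library compared), against 2.19% of all genes lower and 2.51% higher. With LPS, 3 of 63 members were lower and 0 higher, against 3.18% of all genes lower and 3.09% higher. Lower in both states were Rpl3, Rps2 and Rplp0, and 1.35% of all genes met that rule.

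**Figure D3:**
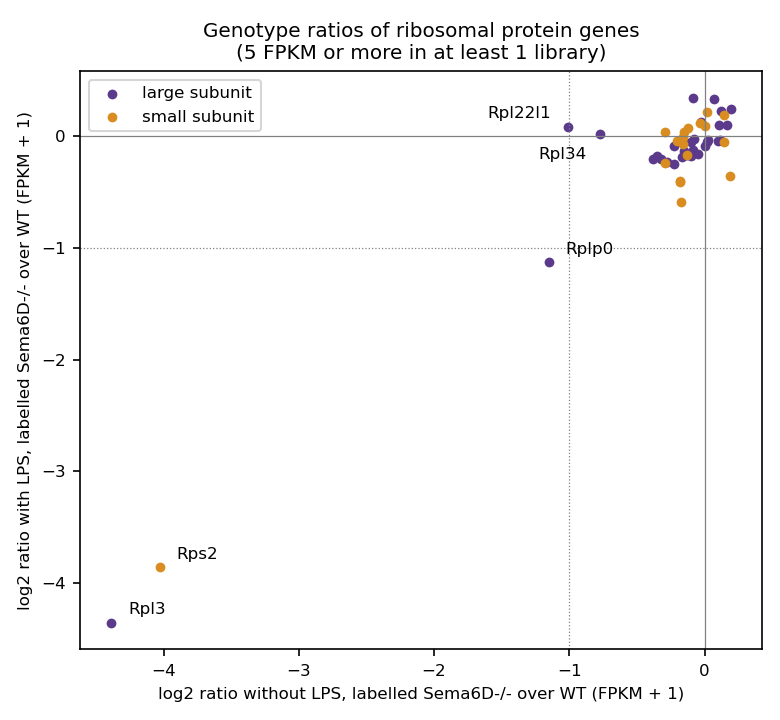
Log2 ratio (FPKM + 1) of the libraries labelled Sema6D-/- over WT without LPS (x axis) and with LPS (y axis) for the 49 ribosomal protein genes that reached 5 FPKM in any library, coloured by subunit, with dotted lines at 2-fold lower. Rpl3, Rps2 and Rplp0 lie past both dotted lines, Rpl22l1 only past the line for the ratio without LPS, and the other genes gather around 0.

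Of the other partners of Rplp0 in the stalk, Rplp1 was lower in the same direction by a smaller amount, and Rplp2 was slightly higher. For Rplp1 the log2 ratio of labelled Sema6D-/- over WT was -0.32 without LPS and -0.21 with LPS. Rplp2, the second acidic stalk protein, had 253 FPKM with LPS and 204 FPKM without LPS in the libraries labelled Sema6D-/-, against 236 and 190 FPKM in WT, with ratios of 0.11 without and 0.10 with LPS. Rpsa had ratios of 0.03 and 0.08 without and with LPS. Rack1, a small subunit protein under another name, had 580 and 482 FPKM with and without LPS in the libraries labelled Sema6D-/-, against 599 and 499 FPKM in WT.

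Genes beside the 3 on their chromosomes were looked at as well, a choice made after the values of the 3 were seen. Among the 3 nearest protein-coding genes on either side that reached 5 FPKM, the genotype ratios lay between -0.26 and 0.67 around Rplp0 and between -0.73 and 0.60 around Rps2. Around Rpl3 they lay between -1.16, for the antiviral cytidine deaminase Apobec3 with LPS, and 1.89, for the growth factor Pdgfb without LPS. The measured genes nearest to the 3 on either side, which were Pdgfb and Syngr1 for Rpl3, Tbl3 and Ndufb10 for Rps2, and Pxn and Gcn1 for Rplp0, had ratios from -0.02 to 1.89 and thus none was lower by 2-fold in either state.

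The remaining members mostly had small genotype ratios, as did most genes. Leaving out the 3, the 43 members that reached 5 FPKM in either library compared had log2 ratios of labelled Sema6D-/- over WT without LPS between -1.01 and 0.20, and 41 of them lay within 0.5 of 0. With LPS the 46 such members lay between -0.59 and 0.35, with 45 of them within 0.5 of 0. Over all genes that reached 1 FPKM the quartiles were -0.16 and 0.24 without LPS, and -0.20 and 0.29 with LPS. The median over all measured members was -0.13 without LPS and -0.05 with LPS, against 0.04 over all genes in both states. Of the 60 members measured without LPS 19 were above 0, and of the 63 measured with LPS 24 were above 0. Of all genes, 5774 of 10322 were above 0 without LPS and 5560 of 10078 with LPS. The medians of the large and small subunits were -0.08 and -0.17 without LPS, and -0.05 and -0.04 with LPS. The neutrophil markers were lower in the libraries labelled Sema6D-/- as well, 8 of 8 without LPS and 7 of 8 with LPS, and the part of such cells in these small shifts was not tested. In bulk RNA, fewer cells of a type and less RNA per cell cannot be told apart.

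At the low end without LPS the 3 genes were followed by Rpl22l1 (-1.01) and Rpl34 (-0.78). At the high end stood Rpl39, at the exit of the peptide tunnel (0.20), Rps19, whose human counterpart is mutated in Diamond-Blackfan anaemia (0.19), Rpl7a (0.17), the X-linked Rps4x (0.14) and Rps14 (0.14). With LPS the low end held Rps4l (-0.59), a paralog of Rps4x, and Rps27l (-0.41), a p53-inducible paralog of Rps27. The high end with LPS held Rpl29 (0.35), Rpl31 (0.33), Rpl39 (0.24) and Rpl30 (0.22). Across the 46 members without the 3 genes, 24 were below 0 in both states and 8 above 0 in both. The same counts over all genes are not reported here.

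LPS was accompanied by slightly higher values of most ribosomal protein genes on the deposited scale, and no measured member was apart by 2-fold on the scale of FPKM + 1. The median log2 ratio of LPS over no LPS was 0.29 in the libraries labelled Sema6D-/-, against 0.01 over all genes, and 0.23 in WT, against -0.00 over all genes. In each genotype 53 of the 62 measured members were above 0 and 9 below. Of all genes, 5263 of 10398 were above 0 in the libraries labelled Sema6D-/- and 5184 of 10375 in WT. On that scale none of the 62 was 2-fold higher or lower in either genotype. Over all genes 14.0% were higher and 8.81% lower by that rule in the libraries labelled Sema6D-/-, and 10.7% were higher and 4.85% lower in WT. Without the added 1, Rps25 (2.77-fold), Rpl38 (2.70-fold) and Rpl32l (2.55-fold) were over 2-fold higher with LPS in the libraries labelled Sema6D-/-, and the ratio was 0.417 for Rps27 and 0.478 for Rpl36 in WT, all of them genes under 5 FPKM. Among genes never below 5 FPKM the member medians were 0.24 in both genotypes (42 genes), against 0.15 in the libraries labelled Sema6D-/- and 0.11 in WT over 6110 genes.

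The direction of this shift rests on how libraries are scaled. The summed FPKM of the members was 7117 with LPS and 5680 without LPS in the libraries labelled Sema6D-/-, and 7725 with LPS and 6493 without LPS in WT. As a share of all FPKM, however, the members held 1.14% with LPS and 1.53% without LPS in the libraries labelled Sema6D-/-, and 1.45% with LPS and 1.76% without LPS in WT. Scaling all libraries to a common FPKM total turned the median LPS ratio of the members to -0.44 in the libraries labelled Sema6D-/- and to -0.27 in WT, and the median of all genes was then -0.65 and -0.46. Centring on the median of the genes never below 5 FPKM gave 0.15 and 0.12, and the median of all genes was then -0.13 and -0.11. Relative to the other genes the members were above the middle under each of these scalings.

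**Figure D4:**
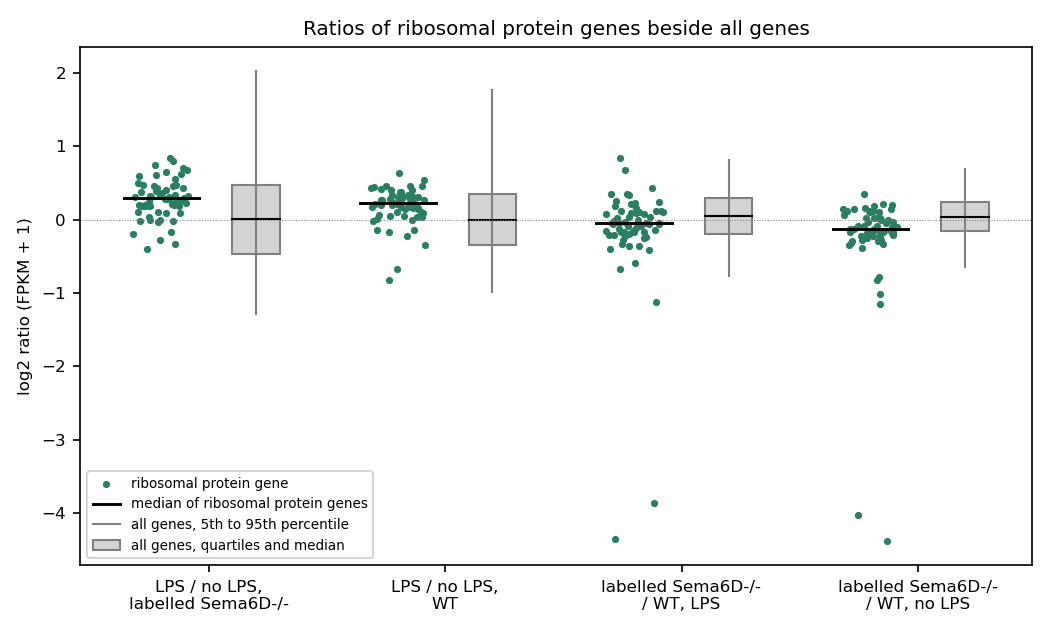
Log2 ratios (FPKM + 1) of the ribosomal protein genes, 1 point per gene with the median as a black line, beside the quartiles (box) and the 5th to 95th percentiles (line) of all genes, for both LPS comparisons and both genotype comparisons. The points for LPS gather just above 0 and inside the range of all genes, and in both genotype comparisons Rpl3 and Rps2 lie near -4 on the log2 scale.

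Single members with the highest LPS ratios in the pair labelled Sema6D-/- were Rpl34 (0.80), Rpl22l1 (0.75), Rps3a1 (0.70) and Rpl31 (0.68). In WT they were highest for Rps19 (0.64), Rpl35a (0.46), Rpl37a (0.46), Rps4l (0.45) and Rpl30 (0.45). Lowest were Rpl7l1 (-0.16), a paralog of Rpl7 with a role in ribosome assembly, Rpl27a (-0.03), Rpl22 (-0.02), Rps27l (-0.01) and Rpl18 (-0.00) in the libraries labelled Sema6D-/-. In WT they were Rpl22l1 (-0.35), Rpl7l1 (-0.22), Rpl27a (-0.15), Rpl29 (-0.02) and Rpl34 (0.01). Across the 48 members that reached 5 FPKM and had a ratio in both genotypes, 41 were above 0 in both genotypes. How many of all genes were above 0 in both is not reported here. The ratios of the genotypes had a Pearson r of 0.18 and a Spearman rho of 0.32 across these 48 members, which share libraries.

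The LPS ratios of the 3 genes that differed between genotypes lay within the range of the other members. Rps2 had 0.44 in the libraries labelled Sema6D-/- and 0.27 in WT, and Rplp0 had 0.20 and 0.18. Rpl3 had 0.05 in WT. In the libraries labelled Sema6D-/- Rpl3 was under 1 FPKM with and without LPS, and its ratio without the added 1 was 0.43, with a 95% Poisson interval from -1.69 to 2.55.

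The one measured member whose LPS ratios differed by 2-fold between the genotypes was Rpl22l1, the paralog of Rpl22, whose level in mouse cells is held down by Rpl22 protein. Rpl22l1 had 5.06 FPKM with LPS and 2.61 FPKM without LPS in the libraries labelled Sema6D-/-, against 4.71 FPKM with LPS and 6.28 FPKM without LPS in WT. The value without LPS was the lowest of the 4 in the library labelled Sema6D-/- and the highest in WT, and the values with LPS lay close to each other. Its difference of log2 LPS ratios (labelled Sema6D-/- minus WT) was 1.10. Its counts were small, about 30 and 21 fragments with and without LPS in the libraries labelled Sema6D-/- and 34 and 69 in WT. Without the added 1 the log2 ratio of labelled Sema6D-/- over WT without LPS was -1.26, with a 95% Poisson interval from -2.03 to -0.53. The Rpl22 gene had 27.6 and 27.9 FPKM with and without LPS in the libraries labelled Sema6D-/-, against 28.6 and 27.6 FPKM in WT, which is a narrow range. In this difference 1 of 63 members was higher by 2-fold and 0 lower, against 1.83% of all genes higher and 1.25% lower. That count was 0 with a common FPKM total and 2 with a pseudocount of 0.1, with no pseudocount or with no filter. Of all genes, 3.19%, 6.15%, 5.87% and 1.39% were apart by 2-fold in the order of these settings. The median difference over the members was 0.06, against -0.01 over all genes.

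The other paralogs were at low or moderate levels, apart from Rpl37rt. Rpl7l1 lay between 30.4 and 36.2 FPKM, Rps27l between 20.7 and 27.9 FPKM and Rpl36al between 17.5 and 25.6 FPKM over the 4 libraries. Rps4l had 3.18 and 3.08 FPKM with and without LPS in the libraries labelled Sema6D-/-, against 5.30 and 3.60 FPKM in WT. Rpl32l had 2.63 and 1.03 FPKM with and without LPS in the libraries labelled Sema6D-/-, against 1.27 and 0.83 FPKM in WT. The muscle paralog Rpl3l, which replaces Rpl3 in striated muscle, was at 0.072 and 0.214 FPKM with and without LPS in the libraries labelled Sema6D-/-, against 0.237 and 0.116 FPKM in WT. Rpl3l was thus near 0 also in the libraries where Rpl3 was low.

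The members also shared features that the rule did not use. They lay on 19 chromosomes (86 members with a position), and 30 of them (34.9%) held at least 1 small nucleolar RNA gene on the same strand, against 1.27% of 21951 protein-coding genes. Small nucleolar RNAs guide chemical modification of ribosomal RNA and are often cut from introns of such host genes. Rpl4 held 5 of them, Rpl13a held 4, Rpl3 held 2 and Rps2 held 1. RefSeq promoter windows (assembly GRCm38.p6) were at hand for 68 members with 80 start sites, and Rpl3, Rplp1 and Rpl32 were not among them. A run of at least 8 C or T bases, in any order, lay between 10 bases before and 20 bases after the start in 26 of these 80 windows (32.5%), against 11.2% of 32851 windows of all genes. The letters CTTTC, which can lie inside such a run, stood on the sense strand of the same interval in 17 windows (21.3%), against 3.74%. The letters CCGGAAG, a form of the ETS family motif, stood on either strand of the 300-base promoter in 27 windows (33.8%), against 8.86%. A match describes the letters and is not a binding site.

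Start regions of 7 members are shown to let pyrimidine runs be compared between them: Rplp2, Rps9, Rps6, the target of the S6 kinases, Rpl4, Rpsa, and Rps2 and Rplp0, both lower in the libraries labelled Sema6D-/-. Each has 30 bases before and 20 bases from the annotated start, on the gene's strand, with runs of at least 5 C or T bases in capitals.
Rplp2, chr7:141447621-141447670, plus strand: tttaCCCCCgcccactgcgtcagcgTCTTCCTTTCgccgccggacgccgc
Rps9, chr7:3704011-3704060, plus strand: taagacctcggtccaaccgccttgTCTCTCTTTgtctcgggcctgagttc
Rps6, chr4:86857348-86857397, minus strand: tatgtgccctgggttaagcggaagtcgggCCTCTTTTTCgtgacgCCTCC
Rpl4, chr9:64173357-64173406, plus strand: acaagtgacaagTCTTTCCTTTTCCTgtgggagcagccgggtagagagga
Rpsa, chr9:120127736-120127785, plus strand: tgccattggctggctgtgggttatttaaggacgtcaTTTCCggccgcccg
Rps2, chr17:24720033-24720082, plus strand: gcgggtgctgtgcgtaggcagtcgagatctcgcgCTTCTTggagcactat
Rplp0, chr5:115559437-115559486, plus strand: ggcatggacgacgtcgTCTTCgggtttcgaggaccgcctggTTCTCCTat

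Rplp2, Rps9 and Rps6 held a run of at least 8 within the interval. Rps2 and Rplp0 held only shorter ones there. Rpl4 and Rpsa, which were not 2-fold apart between the genotypes, also lacked a run of at least 8 within the interval, and the longer run of Rpl4 begins before it.

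Other genes of translation on the fixed lists had medians of similar size. Initiation factors had a median LPS ratio of 0.27 in the libraries labelled Sema6D-/- (36 measured, 3 higher by 2-fold and 0 lower) and 0.18 in WT (1 higher, 0 lower). Eif1, which helps to select the start codon, had the highest ratio in the libraries labelled Sema6D-/- (1.28), and Eif6, which keeps the subunits apart, had the highest in WT (1.02). Other mRNAs with a TOP motif had medians of 0.20 in the libraries labelled Sema6D-/- and 0.16 in WT, with no gene 2-fold apart. Elongation and termination factors had medians of 0.29 and 0.10, and Gspt1, a release factor, was the 1 gene of 10 higher by 2-fold in the libraries labelled Sema6D-/- (1.01), with 0 in WT. Of all genes, 14.0% were higher and 8.81% lower by 2-fold in the libraries labelled Sema6D-/-, and 10.7% and 4.85% in WT. The genotype medians of these 3 lists lay between -0.13 and -0.11 without LPS and between -0.04 and -0.00 with LPS, and none of their genes was 2-fold apart in either state. By the same rule 2.51% of all genes were higher and 2.19% lower without LPS, and 3.09% and 3.18% with LPS. The medians of the 3 lists had the sign of those of the ribosomal protein genes, but the genotype medians with LPS were close to 0. There 18 initiation factors were above 0 and 18 below, 5 elongation and termination factors above and 5 below, and 8 TOP mRNAs above and 12 below. The TOP list also shares genes, such as Eif4b and Eef1g, with the other lists, so the 3 lists are not separate.

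Mitochondrial ribosomal proteins, encoded by separate nuclear genes, had medians on the other side of 0 but near those of all genes. Their LPS medians were -0.07 in the libraries labelled Sema6D-/- and -0.05 in WT, against 0.01 and -0.00 over all genes. Their genotype medians were 0.09 without LPS and 0.03 with LPS, against 0.04 over all genes in both states. Of these genes 1 of 77 was higher and 1 lower by 2-fold with LPS in the libraries labelled Sema6D-/-, and 3 of 78 were higher and 0 lower in WT. Mrpl39 was highest with LPS in both genotypes, at a ratio of 1.51 in the libraries labelled Sema6D-/- and 1.22 in WT. Mrpl52 was highest in both genotype comparisons, at 1.04 without LPS and 0.79 with LPS. Of 52 ribosome assembly factors, 5 were higher and 3 lower by 2-fold with LPS in the libraries labelled Sema6D-/-, and 2 were higher and 1 lower in WT. Sbds, which releases Eif6 from the new large subunit, had 158 FPKM with LPS and 31.7 FPKM without LPS in the libraries labelled Sema6D-/- (ratio 2.29), and was 1.10 higher than WT with LPS on the log2 scale. The genotype medians of the assembly factors lay below 0, at -0.19 without LPS (11 above 0, 41 below) and -0.12 with LPS (16 above, 36 below). Between genotypes Sbds was the 1 factor 2-fold higher with LPS and 0 were lower, against 3.09% and 3.18% of all genes. Without LPS 0 were 2-fold apart, against 2.51% of all genes higher and 2.19% lower. Gnl3, a nucleolar GTPase, was the lowest with LPS in both genotypes, at -1.51 in the libraries labelled Sema6D-/- and -1.34 in WT. RNA polymerase I genes had LPS medians of -0.20 and -0.21 in the same order, and 1 of 12 was lower by 2-fold in the libraries labelled Sema6D-/-. The LPS counts stand beside 14.0% higher and 8.81% lower over all genes in the libraries labelled Sema6D-/-, and 10.7% and 4.85% in WT.

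Among regulators of TOP mRNA translation, Larp1 had 133 FPKM with LPS and 27.2 FPKM without LPS in the libraries labelled Sema6D-/- (ratio 2.24), and 88.6 FPKM with LPS and 24.9 FPKM without LPS in WT (1.79). Eif4ebp2, a repressor of cap-dependent initiation, was lower with LPS in both genotypes, by ratios of -1.62 and -1.01. Pdcd4, an inhibitor of the helicase Eif4a, had 1.20 FPKM with LPS and 8.13 FPKM without LPS in the libraries labelled Sema6D-/- (ratio -2.05). In WT Pdcd4 was also lower with LPS, from 4.48 FPKM without LPS, and had the lowest ratio of this list (-1.08). Of the 15 genes of this list 1 was higher and 3 lower by 2-fold with LPS in the libraries labelled Sema6D-/-, and 1 was higher and 2 lower in WT. Over all genes 14.0% were higher and 8.81% lower in the libraries labelled Sema6D-/-, and 10.7% were higher and 4.85% lower in WT.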

How the data were processed

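Stranded mRNA libraries of 4 groups (1 library each) were deposited as FPKM per RefSeq transcript, computed by the authors. Cuffnorm 2.2.1, TopHat2 2.0.13, SAMtools 0.1.19 and Bowtie2 2.2.3, and the build mm9, are named per the submitters' processing notes. Their options, the scaling between libraries and the handling of reads that match several places are not given in the sources used here. Of 34487 transcripts 34163 were named by the RefSeq table of GRCm38 and 187 by GENCODE vM21, 137 were left out, and values were summed per gene. The log2 ratio was taken of FPKM + 1, so that differences of low genes are understated, for genes reaching 1 FPKM in either library compared. Called means apart by 2-fold or more. With 1 library per group no test was run. Fragments were estimated from the steps between low FPKM values of transcripts (72.8% to 75.0% of these came out whole within 0.1, against 20% by chance), with transcript lengths from GENCODE, and gave Poisson intervals. Coding windows and start regions came from GENCODE vM21 and RefSeq tables on GRCm38, used for sequence and gene order only.

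Genes named were Rpl3, Rps2, Rplp0, Rplp1, Rplp2, Rpsa, all paralogs, members at 2-fold or more, the 5 highest and 5 lowest ratios per comparison among members at 5 FPKM or more, the highest and lowest by mean level, and the 2 highest and lowest of each other list. Some members that meet this rule are not reported here. Others named were chosen after their values were seen. The members and lists were chosen with earlier results of these data known. Alternatives were other scalings, pseudocounts, filters, a 1.5-fold rule, the highest transcript per gene, and the list without paralogs. The list without Rpl3, Rps2 and Rplp0, and other scalings for single genes, were chosen after seeing the data. Python 3.11.15, pandas 2.3.3, NumPy 2.4.6, SciPy 1.17.1 and Matplotlib 3.10.9 were used.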

Additional observations from a re-analysis of the deposited data

Results flagged for a closer look

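For 5 members that reached 5 FPKM the LPS ratios lay on opposite sides of 0 in the genotypes, and the difference was not tested. The difference of log2 LPS ratios (labelled Sema6D-/- minus WT) was 1.10 for Rpl22l1, 0.43 for Rpl29, -0.0696 for Rpl18, -0.0683 for Rpl22 and -0.23 for Rps27l. For Rpl18 and Rpl22 both ratios were within 0.1 of 0. Rpl29 had 12.8 FPKM with LPS and 9.43 FPKM without LPS in the libraries labelled Sema6D-/-, against 9.87 and 10.03 FPKM in WT, and 90.3% of its coding windows are shared with other genes. Rps27l had 20.7 and 20.9 FPKM with and without LPS in the libraries labelled Sema6D-/-, against 27.9 and 23.9 FPKM in WT.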

How the results depend on the processing

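The genotype ratios of Rpl3, Rps2 and Rplp0 kept their sign and their side of 2-fold under each of the 3 other scalings and without the added 1. With a common FPKM total the median LPS ratio reversed to -0.44 in the libraries labelled Sema6D-/- and -0.27 in WT, the median difference of LPS ratios reversed to -0.13, the median genotype ratio with LPS was -0.27, and the Rpl22l1 genotype ratio with LPS reversed to -0.10. Centring on the median gave LPS medians of 0.15 (labelled Sema6D-/-) and 0.12 (WT), and a trimmed mean of log ratios gave 0.14 and 0.11. The number of members at 2-fold or more for LPS in the libraries labelled Sema6D-/-, 0 as reported, was 3 with a pseudocount of 0.1, 3 with none and 9 at 1.5-fold. In WT the number of members was 2 with a common total, 2 with 0.1, 2 with none and 3 at 1.5-fold. Of all genes in WT, 21.1%, 20.8%, 21.1% and 31.2% were apart in that order. For the genotypes with LPS, 3 became 5 with 0.1, 6 with none, 7 at 1.5-fold and 0 without Rpl3, Rps2 and Rplp0, and without LPS 4 became 1 without those genes. Of all genes with LPS, 9.31%, 9.38% and 17.9% were apart with 0.1, with none and at 1.5-fold. By the main rule 6.26% of all genes were apart with LPS and 4.70% without LPS. For the difference, 1 became 2 with 0.1, with none, with no filter and at 1.5-fold, and 0 with a common total or without paralogs. Of all genes, 6.15%, 5.87%, 1.39%, 11.3%, 3.19% and 3.08% were apart for the difference, in the order of these settings. Of the summary values, 101 stayed within the limits set for being alike, while 14 were stronger, 4 weaker, 5 moved and 3 reversed. No paired analysis was possible because each group holds 1 library and no test was run. Depth limits Rpl3 in the libraries labelled Sema6D-/- (about 5 fragments each) and the 26 members under 1 FPKM, and no value has a replicate.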

Other observations

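Of the 14 members listed with several transcripts, 10 had a leading transcript that held at least 90% of the sum in every library. For Rps27a the leading transcript changed. It held 0.647 FPKM against 1.15 FPKM for the other transcript with LPS in the libraries labelled Sema6D-/-, and all the signal in the remaining libraries. Rpl30, a large subunit protein, had a further transcript at 2.89 FPKM with LPS and 0 without LPS in the libraries labelled Sema6D-/-, and at 2.19 FPKM with LPS and 0 without LPS in WT. Its leading transcript had 13.6 and 10.9 FPKM with and without LPS in the libraries labelled Sema6D-/-, and 11.8 and 9.96 FPKM in WT. Rps24, which is known for tissue-dependent splicing of its last exons, had all its signal in 1 of 3 transcripts in every library.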
